A study of Mus musculus with 20 samples.

Results

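A set of 9 genes that B lymphocytes use at the cell surface, in receptor signalling and in lineage control was followed through the skin of ageing mice and of mice with a conditional knockout of Sod2. The genes were Cd79a, Cd79b, Ms4a1, Cr2, Cd22, Blk, Fcrla, Pax5 and Spib. They were given by name, each was found in 1 row of the expression table, and that table had 46744 rows in all, of which 19007 were named genes with a row of their own. Whole skin was taken from mice of the inbred strain C57BL/6, and its RNA was sequenced in 20 samples of 6 groups. The controls (genotype Sod2+/+) comprised 5 samples of 50-day, 2 of 100-day, 3 of 300-day and 4 of 700-day mice. The conditional knockout, or cKO (genotype Sod2-/-), comprised 3 samples of 100-day and 3 of 300-day mice. Sod2 encodes the superoxide dismutase of the mitochondrial matrix. The labels do not name the part of Sod2 that was deleted, the cells in which this was done, the driver of the deletion or the body site of the skin. Titles of the 50- and 700-day samples share 1 prefix and those of the 100- and 300-day samples another, and log2 ratios were taken only within a prefix.

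The deposited values were 1 FPKM per gene and group, a measure of sequenced fragments per unit of transcript length and sequencing depth. With 1 value per group, neither an error nor a test can be given, and a group value does not show whether all or only some of its samples carry a transcript. The read depth is unknown. Sod2 itself was 17.6 FPKM in the cKO and 27.7 in the controls at 100 days, 16.8 against 23.5 FPKM at 300 days, and 12.7 and 11.5 FPKM in the 50- and 700-day controls. It was lower in the cKO than in the controls of the same age at both ages, and its transcript was present in both cKO groups. Because an exact 0 may stand for an estimate that failed, such a gene is said to be listed at 0 and gets no fold. A log2 ratio is that of (FPKM + 1), which understates the change of low genes, and a size of 1 or more was the mark for counting a gene as higher or lower.

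As background, B cells recognise antigen through a membrane immunoglobulin that is held by the pair Cd79a and Cd79b, whose tails carry the signal into the cell. Kinases of the Src family such as Blk act on these tails, the complement receptor Cr2 strengthens the signal and Cd22 damps it. The transcription factors Pax5 and Spib maintain the B cell programme. B cells are dense in lymph nodes and spleen and sparse in healthy skin. In whole tissue, fewer cells of a type and less RNA per cell cannot be told apart.

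The 9 genes lie on 6 chromosomes. In the GRCm38 (mm10) assembly with GENCODE M21, Cd79a lies on chromosome 7 from 24897381 to 24902197, Cd79b on chromosome 11 from 106311341 to 106314762, Ms4a1 on chromosome 19 from 11249675 to 11266241 and Cr2 on chromosome 1 from 195136811 to 195176716. Cd22 lies on chromosome 7 from 30865402 to 30880342, Blk on chromosome 14 from 63372836 to 63417037, Spib on chromosome 7 from 44525993 to 44532071, Fcrla on chromosome 1 from 170917576 to 170927583 and Pax5 on chromosome 4 from 44524757 to 44710487. All 9 are annotated as protein-coding.

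RefSeq promoter windows (GRCm38.p6) were matched for 6 of the 9 genes, all but Cd79b, Ms4a1 and Blk. In the 250 bases before the start site, the E-box letters CAGGTG, or CACCTG on the other strand, were found in Cd79a, Cr2, Cd22 and Fcrla, that is in 4 of 6, and in 17.2% of all 32851 windows of that length. The ETS letters GGAAGT, or ACTTCC, were found in Cd79a and Cr2 and in 19.7% of all windows. CCCNNGGG, the core letters bound by early B cell factor, was found in Cd22 and Spib and in 11.8% of all windows, and the octamer ATTTGCAT in none of the 6 and in 1.60% of all windows. No motif overlapped another of a different kind. Shown are the windows of 3 genes that hold the E-box letters, 5′ to 3′ on the gene's own strand, with those letters in capitals. For Cd79a only the 134 bases outside the GENCODE span of the gene are printed, and for Cr2 and Fcrla all 250.
Cd79a, chr7:24897247-24897380, plus strand: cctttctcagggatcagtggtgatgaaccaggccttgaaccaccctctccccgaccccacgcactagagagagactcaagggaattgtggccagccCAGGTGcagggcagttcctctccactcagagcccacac
Cr2, chr1:195176720-195176969, minus strand: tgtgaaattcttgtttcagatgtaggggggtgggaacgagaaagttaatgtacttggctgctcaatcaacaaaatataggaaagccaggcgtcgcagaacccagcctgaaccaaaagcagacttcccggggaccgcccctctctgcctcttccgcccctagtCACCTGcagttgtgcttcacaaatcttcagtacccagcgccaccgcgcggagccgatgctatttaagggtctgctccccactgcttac
Fcrla, chr1:170927584-170927833, minus strand: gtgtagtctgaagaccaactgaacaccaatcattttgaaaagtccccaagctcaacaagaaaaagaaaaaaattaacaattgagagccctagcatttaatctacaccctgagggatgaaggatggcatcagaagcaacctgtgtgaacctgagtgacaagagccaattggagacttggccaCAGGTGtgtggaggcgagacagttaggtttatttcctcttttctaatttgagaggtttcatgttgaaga
A letter match is a description of the sequence only.

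Each of the 9 genes had its highest value in the control skin of 300 days, which was the highest of the 6 groups for 15.8% of the 19007 named genes. Summed over the 9 genes, the level there was 96.3 FPKM. In the other groups the sum was 2.0 FPKM in the 50-day, 0.70 in the 700-day and 1.98 in the 100-day controls, 2.97 in the cKO at 100 days and 1.04 in the cKO at 300 days. Outside the 300-day controls, 43 of the 45 values lay below 1 FPKM, and 8 were listed at 0. The values of 1 FPKM or more were those of Cr2 at 50 days and in the 100-day controls.

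The receptor pair came first. Cd79a, the alpha chain of the pair, stood at 5.89 FPKM in control skin of 300 days, and at 0.0622, 0.0926 and 0.0382 FPKM in controls of 50, 700 and 100 days. In cKO skin Cd79a was 0.0741 FPKM at 100 days and 0.0822 at 300 days. Only the 300-day controls were above 0.1 FPKM for this gene. Cd79b, the beta chain, was 14.7 FPKM in controls of 300 days, 0.422 in those of 100 days, 0.00677 at 700 days and listed at 0 at 50 days. The cKO values of Cd79b were 0.132 FPKM (100 days) and 0.118 FPKM (300 days). The 100-day controls held the next highest level of Cd79b.

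Of the other surface proteins, Cr2 had the highest level. Cr2 encodes the complement receptors of B cells and is also used by follicular dendritic cells. It was 30.7 FPKM in the 300-day controls, 1.60 at 50 days, 1.06 in the 100-day controls and 0.367 at 700 days. In cKO skin Cr2 stood at 0.756 FPKM at 100 days and at 0.488 at 300 days. Cr2 was the highest of the 9 genes in all 6 groups. Ms4a1, the surface protein CD20, was 6.81 FPKM in the 300-day controls and was listed at 0 in the 50- and 100-day controls and in the cKO at 300 days. It stood at 0.00998 FPKM at 700 days and at 0.255 in the cKO at 100 days. Cd22, a sialic acid-binding lectin that restrains receptor signalling, was 14.5 FPKM in the 300-day controls. In the other controls Cd22 stood at 0.297 FPKM (50 days), 0.0305 (700 days) and 0.0521 (100 days). The cKO values of Cd22 were 0.668 FPKM (100 days) and 0.125 FPKM (300 days).

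Blk and Fcrla encode proteins found inside the cell. Blk, a Src family kinase, had the lowest level of the 9 genes in the 300-day controls at 2.43 FPKM. It lay between 0.0117 FPKM (controls of 50 days) and 0.167 FPKM (cKO at 100 days) in the other 5 groups. Fcrla, a relative of the Fc receptors that stays inside the cell, was 4.08 FPKM in the 300-day controls and 0.391 in the cKO at 100 days. It was 0.189 FPKM in the 100-day and 0.0923 in the 700-day controls, and listed at 0 at 50 days and in the cKO at 300 days. The span of Fcrla holds a predicted gene on the same strand, Gm2962, whose control values were 2.82 FPKM at 300 days and 0.353 FPKM at 100 days, so the share of reads given to Fcrla is uncertain.

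Both transcription factors had the same highest group. Pax5, which commits cells to the B lineage, was 13.8 FPKM in the 300-day controls. It was 0.00190 FPKM at 50 days, 0.0533 in the 100-day controls and 0.195 in the cKO at 100 days, and was listed at 0 at 700 days and in the cKO at 300 days. Spib, an ETS factor also used by plasmacytoid dendritic cells, was 3.22 FPKM in the 300-day controls, and between 0.0209 FPKM (controls of 700 days) and 0.333 FPKM (cKO at 100 days) elsewhere. Genes annotated on the opposite strand overlap Ms4a1, Cd22 and Pax5. The highest of these was Gm29439, opposite Cd22, at 1.24 FPKM in the 300-day controls. Whether the authors counted reads by strand is not stated in the sources used here.

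**Figure D1:**
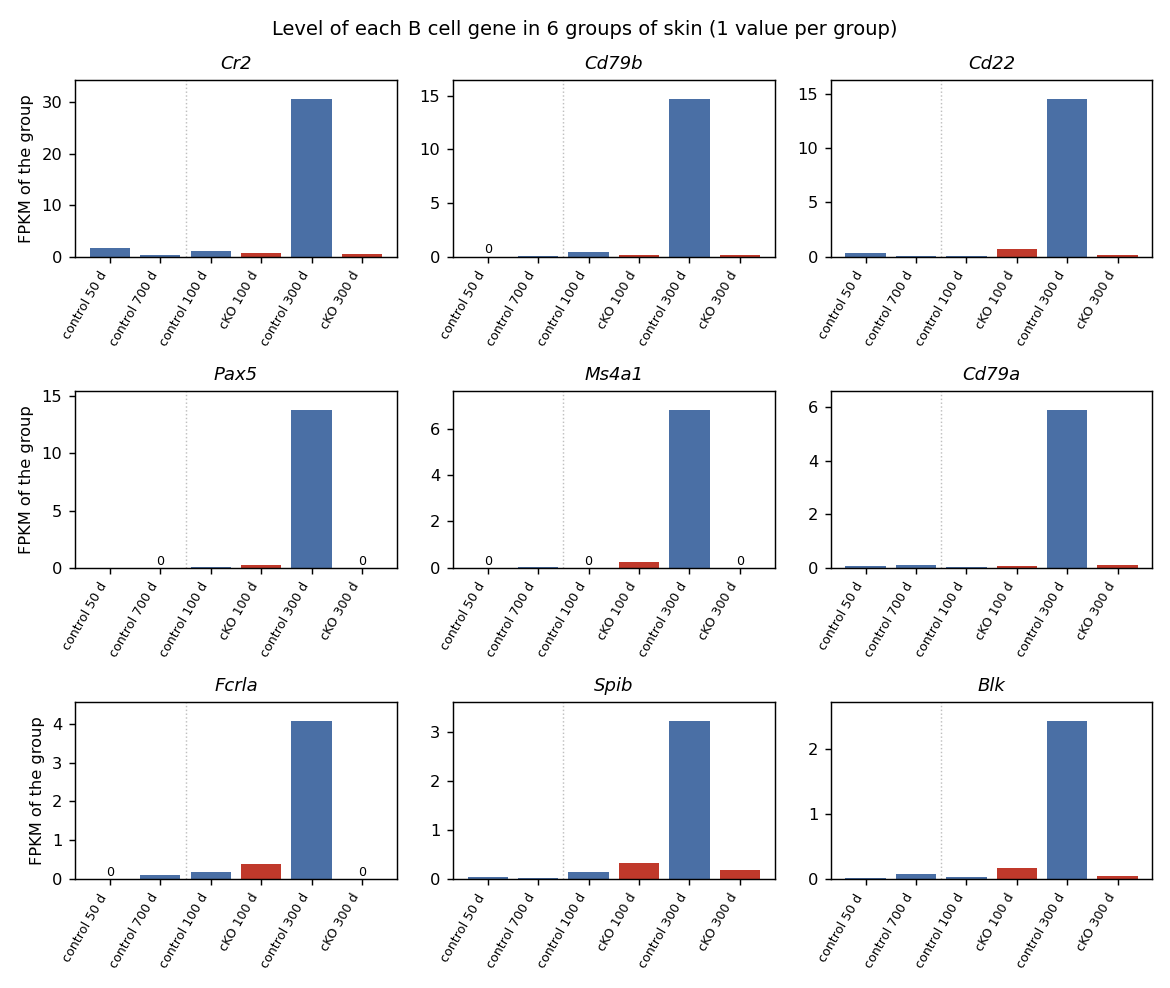
Level of each of the 9 genes, as the authors' FPKM per group (y axis, linear from 0, its own scale in each panel), in 6 groups of skin (x axis; blue, control; red, Sod2 cKO; d, days; 0, listed at 0; the dotted line parts the title prefixes). The 300-day control is the highest bar in every panel, from 2.43 FPKM for Blk to 30.7 FPKM for Cr2.

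Within the 300-day controls the levels followed the order Cr2, Cd79b, Cd22, Pax5, Ms4a1, Cd79a, Fcrla, Spib and Blk. FPKM are given per length, so levels of different genes can be set side by side. The neighbours Cd79b, Cd22 and Pax5 lay close together at 14.7, 14.5 and 13.8 FPKM, and without a spread between samples their order cannot be told. The partner chains were unequal, with Cd79a at 5.89 and Cd79b at 14.7 FPKM. Cr2 stood above 89.4% of the named genes in this group and Blk above 44.3%. Against Ptprc, the CD45 antigen of all leukocytes, which was 89.2 FPKM there, the level of Cr2 came to 34.5%, that of Cd79b to 16.5% and that of Blk to 2.73%.

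The comparison of cKO with control skin at 300 days asked what the cKO genotype goes with at this age. All 6 of the genes above 0 in both groups were lower in the cKO by the size counted, with a median log2 ratio of -3.23. Of all 14357 named genes above 0 in both groups, 4.55% were lower and 1.61% higher, and their median was -0.02. The log2 ratio was -4.41 for Cr2, -3.81 for Cd79b, -3.79 for Cd22 and -2.67 for Cd79a. It was -1.85 for Spib and -1.71 for Blk, the genes with the lowest levels. Ms4a1, Fcrla and Pax5 were listed at 0 in the cKO and get no ratio. Of the 9 genes 6 averaged 1 FPKM or more over all groups, and only through the 300-day controls. Blk, Spib and Fcrla did not.

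At 100 days the same genotype comparison gave no gene of the 9 past the size counted. Of the 8 genes above 0 in both groups none was higher and none lower by that size, against 1.84% higher and 3.6% lower among 14964 named genes. Their median log2 ratio was 0.19. Cd79b had the lowest at -0.33, with 0.132 FPKM in the cKO against 0.422 in the control. Cd22 had the highest at 0.66, with 0.668 against 0.0521 FPKM, and it passed the size counted with a pseudocount of 0.5 (1.08). All these levels except that of Cr2 in the control lay below 1 FPKM. With a pseudocount of 1, no gene but Cr2 could therefore reach the size counted. The difference between the genotype ratios, 300 minus 100 days, ranged from -4.45 for Cd22 to -1.90 for Blk among the 6 genes with values above 0 in all 4 groups. All 6 passed the size counted downwards, as did 4.55% of 14113 named genes.

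Age within each genotype was the other axis. In control skin all 8 genes above 0 at both ages were higher at 300 than at 100 days, with a median log2 ratio of 3.10, against 3.1% of 14718 named genes. The log2 ratio was 3.94 for Cr2, 3.89 for Cd22, 3.81 for Pax5, 3.47 for Cd79b and 2.73 for Cd79a. It was 2.09 for Fcrla, 1.89 for Spib and 1.75 for Blk. This comparison and that of the genotypes at 300 days share the 300-day controls, so they are not independent. In cKO skin none of the 6 genes above 0 at both ages passed the size counted between 100 and 300 days, while 2.02% of 14531 named genes were higher and 1.27% lower. Their ratios ran from -0.57 for Cd22 to 0.01 for Cd79a.

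Between 50 and 700 days, in the other title prefix, none of the 5 genes above 0 at both ages passed the size counted, while 0.473% of 15024 named genes were higher and 2.6% lower. Cr2 was nearest to it, at 0.367 FPKM at 700 days and 1.60 at 50 days, a log2 ratio of -0.93. With values rescaled to equal totals the ratio of Cr2 was -1.20, with a pseudocount of 0.5 it was -1.28 and with 0.1 it was -1.86, each past the size counted. The others ran from -0.33 for Cd22 to 0.09 for Blk. Their values all lay below 1 FPKM, so with a pseudocount of 1 they could not reach the size counted.

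**Figure D2:**
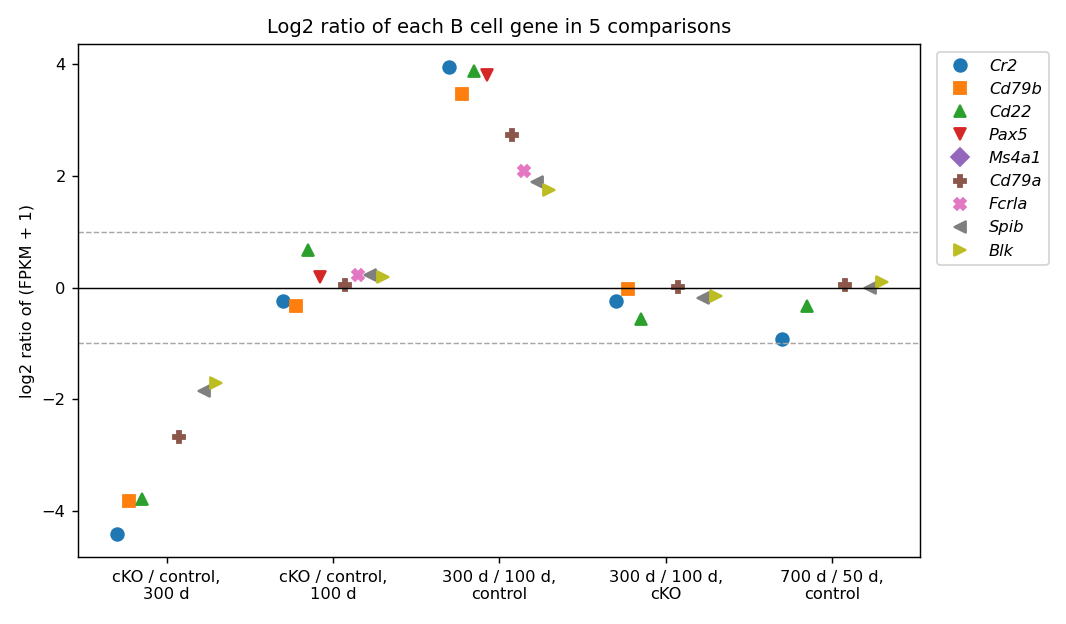
Log2 ratio of (FPKM + 1) (y axis) of each of the 9 genes in 5 comparisons (x axis; cKO, Sod2 conditional knockout; d, days); genes listed at 0 in a compared group are not drawn, and dashed lines mark the size counted. Every point lies below the lower line for cKO against control at 300 days and above the upper line for 300 against 100 days in controls, and every point lies between the lines in the other 3. A gene below 1 FPKM in both compared groups cannot pass a line.

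Other B cell genes shared the highest group. A list of 27 further surface and identity genes had 26 with a row of their own, of which 25 were highest in the 300-day controls. Of the 23 above 0 in both groups at 300 days, 20 were lower in the cKO and none higher (median -2.01). The list summed to 250 FPKM in the 300-day controls and to 43.3 to 73.9 FPKM elsewhere. Of the 26 genes, 6 stood at 1 FPKM or more in each other group. Bach2 was 31.8 FPKM in the 300-day controls and 10.3 to 16.4 elsewhere, Cd72 13.6 and 2.62 to 6.50, and Cd37 15.5 and 1.18 to 3.88. Fcmr, an Fc receptor for immunoglobulin M, was 18.9 FPKM in the 300-day controls and at most 0.987 elsewhere. Ebf1, a B lineage factor that fat and stromal cells also express, was the exception in its highest group. Ebf1 was 30.5 FPKM in the 300-day and 37.4 in the 100-day controls and 18.1 FPKM in the cKO at 300 days (log2 ratio against control -0.72).

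The genes listed for B cell receptor signalling had a smaller median ratio. Most of these are used by other leukocytes as well, and 18 of the 23 with a row stood at 1 FPKM or more in each other group. Of the 23 genes 11 were lower in the cKO at 300 days and none higher (median -0.93). Ptprc had the lowest ratio of the list (-2.69), at 13.0 against 89.2 FPKM. Ptpn6, a phosphatase that Cd22 recruits, was 12.6 against 32.0 FPKM, but was highest in the 700-day controls at 41.5 FPKM. Fcgr2b, the inhibitory Fc receptor, was 8.45 against 23.5 FPKM and Inpp5d, a lipid phosphatase, 10.1 against 23.0 FPKM. Cd81, the most abundant gene of the list, was 45.0 against 76.9 FPKM and was highest in the 100-day controls at 92.7 FPKM. Bcl10, an adaptor towards NF-kappaB, was 12.0 against 11.8 FPKM.

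Antibody genes stood with the 9 genes. All 11 constant region genes with a row were highest in the 300-day controls. Their sum was 419 FPKM there and 6.25 to 15.6 FPKM in the other groups. Ighd, which marks naive B cells, was 33.6 FPKM and at most 0.669 elsewhere. Ighm was 60.8 FPKM in the 300-day controls and 13.2 in the cKO of that age. Of plasma cell genes, Jchain, the chain that joins secreted immunoglobulins, was 6.79 FPKM and at most 0.465 elsewhere, and Irf4 was 6.89 FPKM in the 300-day controls and 1.46 in the cKO (log2 ratio -1.68). Irf4 was the only 1 of the 9 plasma cell genes above 0 in both groups that was lower by the size counted at 300 days, and none was higher (median -0.27). Sdc1 and Prdm1 lay on the other side, with log2 ratios of 0.63 and 0.50. The list of 10 plasma cell genes as a whole had its sum of 190 FPKM in the 300-day controls inside the range of the other groups, 183 to 271 FPKM. Its most abundant member, Sdc1, is also a gene of keratinocytes. Of 7 germinal centre genes with a row none passed the size counted at 300 days in either comparison. Bcl6, a factor of germinal centre B cells, was 16.2 FPKM in the 300-day controls and 15.5 in the cKO. It was 14.3 FPKM in the control and 13.8 in the cKO at 100 days, and 30.5 and 33.0 FPKM in the 50- and 700-day controls. Its level thus did not follow the 9 genes.

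Markers of other cells were also high in the 300-day controls, and their part in the result was not tested. The list of 8 genes of all leukocytes summed to 388 FPKM in the 300-day controls and to 51.9 to 116 FPKM elsewhere, and all 8 were lower in the cKO at 300 days (median -2.59). Of 18 T cell genes with a row 17 were highest in the 300-day controls. Their sum was 229 FPKM there and 41.6 to 79.2 elsewhere. Of the 17 above 0 in both groups at 300 days, 16 were lower in the cKO and none higher by the size counted (median -1.95). Trac, the T cell receptor alpha constant region, had the lowest ratio, at 0.439 FPKM in the cKO against 24.8 in the control. Trbc2 was 6.92 against 26.7 FPKM and Cd3g 5.94 against 21.2 FPKM. Lef1, with the highest mean of the list, was 49.3 FPKM in the cKO against 28.9 in the control. Macrophage genes summed to 404 FPKM and to 62.4 to 187 FPKM elsewhere, with 5 of 12 lower in the cKO at 300 days (median -0.91). Genes of dendritic cells and MHC class II summed to 407 FPKM and to 117 to 350 elsewhere, with 9 of 12 lower (median -1.41).

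Genes of lymph node stroma and its high endothelium summed to 149 FPKM in the 300-day controls and to 20.4 to 56.7 FPKM elsewhere. The most abundant gene of the list there was Glycam1, a mucin-like ligand made by high endothelial venules and by mammary gland. Glycam1 was 73.6 FPKM in the 300-day controls, 0.515 in the cKO at 100 days, 0.0299 at 50 days and listed at 0 in the other 3 groups. Ltb, a lymphotoxin of lymphocytes, was 16.3 FPKM and at most 0.809 elsewhere, and Lyve1, of lymphatic endothelium, 15.9 and at most 5.73 FPKM. Other abundant genes of the list were highest in another group. Enpp2, with the highest mean of the list, was 23.3 FPKM in the 300-day and 25.5 in the 100-day controls. Reln was 2.74 FPKM in the 300-day controls and 5.04 in the cKO of that age. Cxcl13 was 11.1 FPKM in the 300-day controls and 17.7 in the cKO at 100 days. Of the 15 genes with a row, 8 were highest in the 300-day controls. Other genes of high endothelium had low levels with the same highest group. Fut7 was 1.25 FPKM there and at most 0.164 elsewhere, Chst4 0.518 and at most 0.0182 FPKM, and Madcam1 0.196 and at most 0.126 FPKM. Ccl19, a chemokine of lymph node stroma, was 0.253 FPKM in the 300-day and 0.367 in the 50-day controls. Ccl21a was listed at 0 in all 6 groups, which may stand for an estimate that failed. These 5 genes were chosen after their values were seen. Of the 9 genes of this list above 0 in both groups at 300 days, 3 were lower in the cKO (median -0.74). Whether a lymph node was part of the skin taken was not tested.

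The tissue markers followed other orders. Simple epithelium and gland genes, which include those of mammary gland, summed to 577 FPKM in the 100-day controls, to 186 in the 300-day controls and to 37.0 to 107 elsewhere. All 8 skin genes, among them Krt14 and Krt5 of the basal epidermis and Dcn of fibroblasts, were above 1 FPKM in every group, and none passed the size counted between the controls of 100 and 300 days (median -0.04). Skeletal muscle genes had a median of -0.10 and adipocyte genes one of -0.45 in that comparison. Between cKO and control at 300 days, 4 of the 8 skin genes were higher in the cKO and none lower (median 0.90). Of 14357 named genes above 0 in both groups, 1.61% were higher. Among the 4 skin genes were Col1a1, a collagen of fibroblasts (1.67), and Krt1, a keratin of the upper epidermis (1.64). Of the 8 adipocyte genes 6 were lower there and none higher (median -1.22), and none of the 7 skeletal muscle genes passed the size counted (median 0.18). Of the 11 simple epithelium and gland genes above 0 in both groups 9 were lower in the cKO (median -2.74). Tissue markers thus differed along with the 9 genes in the genotype comparison at 300 days, and their part in the result was not tested. At 100 days, where none of the 9 genes passed the size counted, tissue markers differed as well. All 8 adipocyte genes (median -1.72) and 10 of 13 simple epithelium and gland genes (median -4.49) were lower in the cKO. Of 7 skeletal muscle genes 2 were lower there, and no skin gene passed the size counted (median -0.19). The Y-linked genes Uty, Kdm5d, Eif2s3y and Ddx3y stood between 14.7 and 45.1 FPKM in both cKO groups and the 700-day controls, and at most at 0.347 FPKM in the 50-, 100- and 300-day controls. Genotype and this sex-linked difference therefore cannot be told apart at 100 or at 300 days. Between 50 and 700 days, age and the sex-linked difference cannot be told apart either. In the controls of 300 and 100 days Y-linked genes were at most 0.103 FPKM.

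**Figure D3:**
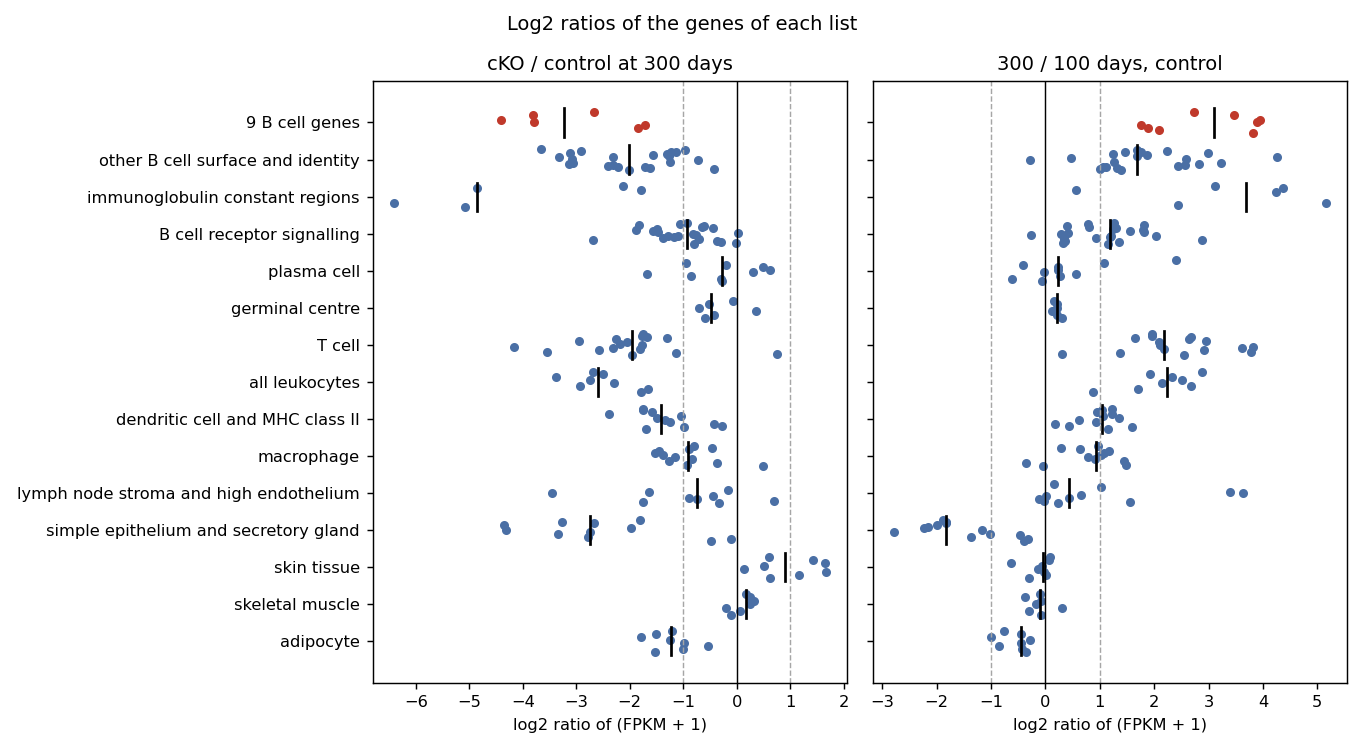
Log2 ratio of (FPKM + 1) (x axis) of the genes of each list (y axis) for cKO against control at 300 days (left) and for 300 against 100 days in controls (right). Each point is a gene (red, the 9 B cell genes), black bars are list medians, dashed lines mark the size counted and genes listed at 0 in a compared group are left out; the drawn B cell genes, 6 on the left and 8 on the right, have medians of -3.23 and 3.10, while simple epithelium and gland genes lie on the lower side in both panels.

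The genes most like the 9 were sought by the Pearson correlation, over the 6 groups, with their mean log2(FPKM + 1). The 1239 genes compared reached at least 5 FPKM in a group and ranged over at least 2 on the log2 scale. The 6 points share the single high group, so such an r is easily near 1 and is given as a description. Glycam1 came first (r = 0.999), followed by Gimap3, a GTPase of lymphocytes (0.999), and Rac2, a small GTPase of blood cells (0.998). The next 6 were the immunoglobulin genes Ighg2c, Ighv1-20, Ighv1-37, Ighv9-3, Iglv3 and Ighd (each 0.997). Gimap3 was 11.4 FPKM in the 300-day controls and at most 0.281 elsewhere, and Rac2 was 10.8 and at most 0.847. Among the 9 genes themselves, r with the mean of the other 8 ran from 0.977 for Cr2 to 0.999 for Pax5. Cr2 was the one with levels above 1 FPKM in further groups.

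**Figure D4:**
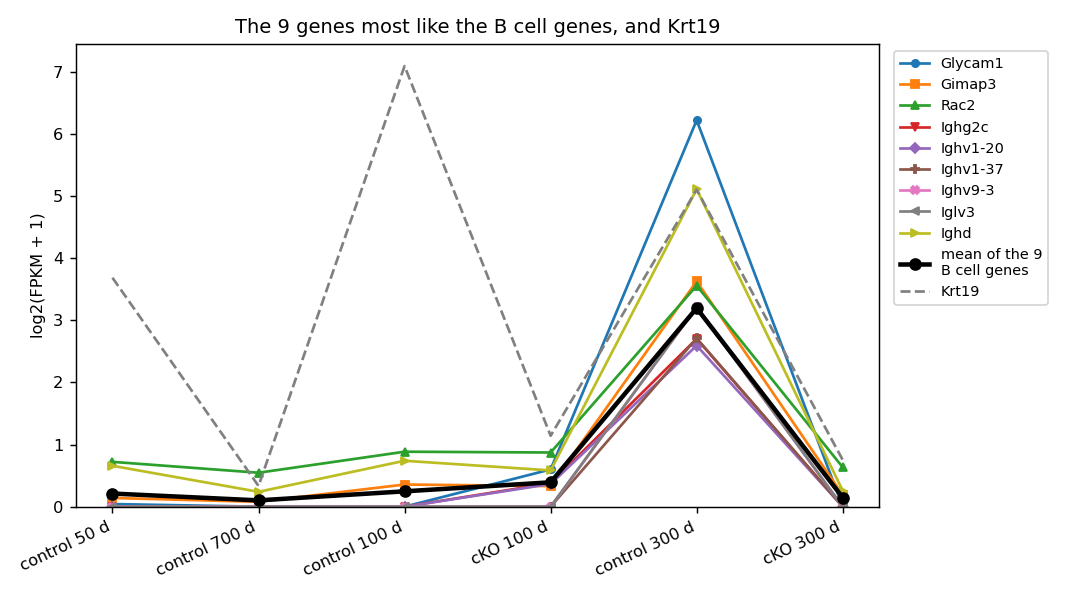
Log2(FPKM + 1) (y axis) in the 6 groups (x axis; lines only link the values of a gene) of the mean of the 9 B cell genes (black), of the 9 genes most like it (colours) and of Krt19 (dashed grey), a keratin of simple epithelium. These 9 genes and the black line peak in the 300-day controls, while Krt19 is highest in the 100-day controls.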

How the data were processed

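Ribosomal RNA was removed from total RNA of whole skin with either of 2 kits (the kit of each sample is not given), and strand-specific libraries gave single-end reads of 75 bases, per the labels' protocols. The authors processed the data with HISAT2, Cufflinks and Cuffdiff against mm10, per the submitters' processing notes, which give no versions. The deposited values are FPKM, 1 per group, and how samples were merged into a group value is not stated in the sources used here. No value per sample was used, so no test was possible and depth is unknown. Groups follow the source names in the labels.

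The log2 ratios of (FPKM + 1) were computed here, with the row of the highest mean for a symbol, over named genes of GENCODE M21 without predicted genes, Rik and LOC names, microRNAs, small nucleolar and ribosomal RNAs and pseudogenes. Rows that carry more than 1 symbol (1057) did not enter. The 9 genes and the 15 other gene lists were chosen with earlier results of these data known. Named were the 9 genes, up to 6 of the most abundant genes of a list and the 10 genes most like the 9, of which 1 is not reported here. Fut7, Madcam1, Ccl19, Chst4 and Ccl21a were picked after their values were seen. The counting was tested on simulated data, with changes placed only in genes averaging at least 5 FPKM over the compared groups. Counting at low values was therefore not tested. Python 3.11.15, pandas 2.3.3, numpy 2.4.6 and matplotlib 3.10.9 were used.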

Additional observations from a re-analysis of the deposited data

How the results depend on the processing

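No paired analysis was possible because the table holds 1 value per group and no value per sample, and no replicate could be left out. Pseudocounts of 0.1 and 0.5, rescaling to a common median or to equal totals, summing the rows of a symbol, and including rows with several symbols left the direction and side of the size counted as they were for every one of the 9 genes that was above 0 in the compared groups, for cKO against control at 300 days, for 300 against 100 days in controls and for the difference between the genotype ratios. The filter does not enter the ratios of the 9 genes. In the comparisons without a counted gene, low values decided. With a pseudocount of 0.1, 3 of the 9 were higher and 1 lower in the cKO at 100 days, 4 were lower at 300 than at 100 days in the cKO, and 2 (Cr2 and Cd22) were lower at 700 than at 50 days. These counts include genes listed at 0, which get no fold. Among the genes above 0 on both sides, Cd22 and Blk were higher and Cd79b lower in the cKO at 100 days, and Cd22 was lower at 300 than at 100 days in the cKO. With a pseudocount of 0.5, 1 was higher in the cKO at 100 days and 1 lower at 700 days, and with equal totals 1 was lower at 700 days. Among all genes that averaged 1 FPKM or more, 772 passed the size counted in the cKO at 100 days and 1255 with a pseudocount of 0.1, 457 and 828 at 300 against 100 days in the cKO, and 461 and 897 at 700 against 50 days. When an average of 5 FPKM or more was asked for, the counts were 417 instead of 831 (cKO at 300 days), 493 (cKO at 100 days), 219 instead of 529 (controls, 300 against 100 days), 258 (cKO, 300 against 100 days) and 528 instead of 1021 (difference between the genotype ratios). Equal totals moved the median log2 ratio of all genes by -0.12 in the cKO at 100 days and by -0.18 in controls at 300 against 100 days. Leaving out genes listed at 0 was chosen after seeing the data. Depth is unknown, so no limit of detection can be given for the low groups.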

Other observations

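Cxcl13, the chemokine that draws B cells into follicles, did not follow the 9 genes. It was 17.7 FPKM in the cKO at 100 days, 11.1 in the 300-day controls and 2.91 in the cKO at 300 days. In the 50-, 700- and 100-day controls it lay between 0.152 and 0.351 FPKM. In the cKO at 100 days, where Cxcl13 was highest, the 9 B cell genes lay between 0.0741 and 0.756 FPKM. Cxcl13 was thus higher in the cKO than in control skin at 100 days (log2 ratio 4.02) and lower at 300 days (-1.63), with 1 value per group and no test. In the cKO at 100 days 6 of the 9 genes, all but Cd79a, Cd79b and Cr2, had their next highest level after the 300-day controls. These levels were low, at most 0.668 FPKM for Cd22, and depth is unknown. How often named genes in general have this order was not counted, and a link to Cxcl13 was not tested.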
